A study of Mus musculus with 29 samples.

Results

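The genes described here encode the nuclear subunits of respiratory complex I and complex II, and they were followed in 29 mouse heart libraries. Of 20411 genes in the deposited count table, 41 have a symbol that is Ndufa, Ndufb, Ndufc, Ndufs or Ndufv with a number, or Sdha, Sdhb, Sdhc or Sdhd. Assembly factors and pseudogenes were not taken. All 41 had enough reads to be tested, among 12928 genes tested in all. They comprise 35 subunits of complex I, the 4 subunits of complex II, and Ndufa4 with its relative Ndufa4l2, which carry a complex I name although Ndufa4 protein is now placed in complex IV.

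Complex I is the entry point of the mitochondrial respiratory chain for electrons from NADH. An arm in the matrix takes the electrons (the NADH or N module) and passes them along iron-sulphur clusters to ubiquinone (the ubiquinone or Q module), and an arm in the membrane pumps protons. Complex II oxidises succinate, passes its electrons to the same ubiquinone pool and pumps no protons, and it is also an enzyme of the citric acid cycle. Heart muscle is rich in both. The membrane arm's core subunits are encoded by mitochondrial DNA and were not analysed here.

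The animals were wildtype BALB/c mice, and the tissue was heart. Every mouse received an adeno-associated virus (AAV) by vein that carried either GFP, the control, or REV-ERBa, the nuclear receptor of the circadian clock that acts as a repressor. Both were driven by the Tbg promoter, which acts in hepatocytes, so the vector's product was directed to the liver and the readout was taken in another organ. After 10 days, C26 colon carcinoma cells were placed under the skin, and mice without a tumour received PBS (saline). The groups were PBS_GFP (4 libraries, Tbg_AAV_GFP and PBS), PBS_REV-ERBa (5, Tbg_AAV_REVERBa and PBS), C26_GFP (10, Tbg_AAV_GFP and C26 cells) and C26_REV-ERBa (10, labelled Tbg_AAV_REVERB and C26 cells). Each library carries its own animal identifier in the labels. Age, sex and time of tissue collection are not stated there.

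Levels are given as CPM, counts scaled to a common library total, after TMM, a correction for library composition, and differences are log2 changes with their standard error (SE). A gene was called changed at an adjusted p under 0.05 (edgeR's quasi-likelihood test, Benjamini-Hochberg adjustment over all genes tested). Total counts per library ran from 3207497 to 16853646, and 5 libraries exceeded 10000000 (PBS_GFP replicates 1 and 2, C26_GFP replicates 4, 5 and 6). The lowest count of any member in any library was 16, for Ndufs5. Markers of cardiomyocytes were high in every library, with Myh6 at 15630 CPM or more. Skeletal muscle markers summed to at most 2.15 CPM and the skeletal myosin Myh4 was at 0 in all 29. Atrial markers were uneven, and 8 libraries from all 4 groups had a mean above 5 on the log2 CPM scale. PBS_GFP replicate 2 and C26_REV-ERBa replicate 10 had both high atrial markers and the highest means of hepatocyte markers. Nr1d1, the gene of REV-ERBa, averaged 195 CPM in PBS_GFP, 199 in PBS_REV-ERBa, 137 in C26_GFP and 166 in C26_REV-ERBa hearts. It was not called in any comparison, and its level in heart does not check a vector directed to hepatocytes.

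Some libraries stood apart in the members' mean, taken as the average log2 CPM of the 41 genes after centring each gene. PBS_GFP replicate 1 was the highest of its group at 0.26, against 0.03 to 0.14 in the other 3 tumour-free GFP hearts. C26_REV-ERBa replicate 4 was at 0.23 and replicate 9 at -0.24, the ends of that group. In C26_GFP, replicate 6 was highest at 0.09, and replicates 1, 8 and 10 were lowest at -0.21, -0.22 and -0.17. Calls of the tumour comparison under GFP that were lost without 1 of these libraries are given with and without it. For the other comparisons such changes are given as counts. Further calls of the tumour comparison that were lost under other settings are named in the closing section.

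The C26 tumour was accompanied by lower subunit mRNA in hearts of mice given the GFP vector. Of the 41 genes, 16 fell, 1 rose (Ndufa7) and 24 were not called, while 14.0% of all genes tested fell and 14.2% rose. The estimate was negative for 38 of 41 genes (92.7%, against 50% of all genes), and the median log2 change was -0.20, against 0.00 over all genes (-2.85e-05). The changes were small, between -0.52 for Ndufs8 and 0.32 for Ndufa7. Of these 16, 15 belong to complex I and the other is Sdhd, a membrane anchor of complex II. Among the nuclear core subunits of complex I, which carry the redox chemistry, 4 of 7 fell, and among the supernumerary subunits, which surround the core, 11 of 28 fell and 1 rose. The 7 genes Ndufs4, Ndufs8, Ndufv2, Ndufc2, Ndufb3, Ndufb5 and Sdhd were called lower in all 11 alternative analyses and with each of the 29 libraries left out in turn. Of the 11, 1 is the main test at an adjusted p under 0.1, which keeps every call by design. The count of 16 rested partly on a single control: without PBS_GFP replicate 1 it was 8, the median was -0.15 and 32 of 41 estimates were negative, while 10.5% of all genes fell and 10.9% rose. Without the 5 libraries above 10000000 counts it was 9, beside 7.5% of all genes, and the median was -0.21.

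**Figure D1:**
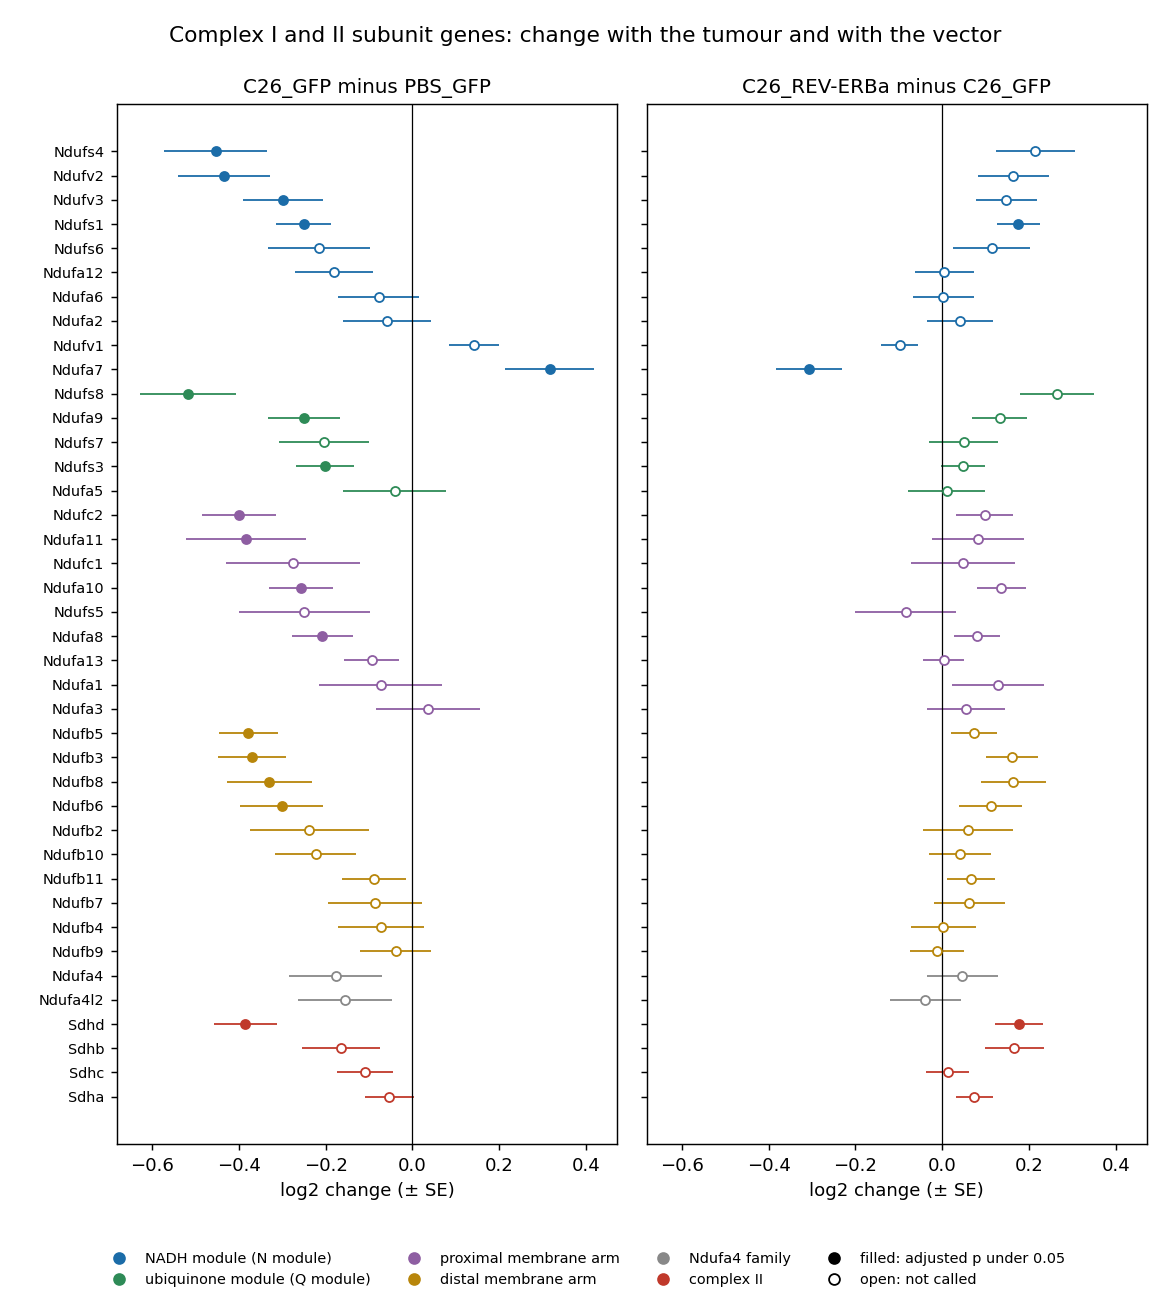
Log2 change with its SE for 40 subunit genes, C26_GFP minus PBS_GFP on the left and C26_REV-ERBa minus C26_GFP on the right, coloured by part of the complex and filled where the adjusted p was under 0.05. On the left 37 of 40 points lie below 0 and 17 are filled, and on the right 35 of 40 lie above 0 and 3 are filled; the panels share the C26_GFP libraries.

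In the N module, which binds and oxidises NADH, 4 of 10 genes fell in C26_GFP hearts (Ndufs4, Ndufv2, Ndufv3 and Ndufs1), 1 rose and 5 were not called. Ndufs4 encodes an accessory subunit that stabilises the N module and is mutated in Leigh syndrome (chr13:114287795-114388094, mm10). Its level was 52.7, 47.9, 52.2 and 48.0 CPM in the 4 PBS_GFP hearts and 27.9 to 44.9 CPM (median 36.8) in the 10 C26_GFP hearts. Every C26_GFP heart was below every PBS_GFP heart, and the change was -0.45 ± 0.12, adjusted p = 0.00469. Here and below, the share of all genes tested whose groups do not overlap was not counted, and there were only 4 controls. Under the REV-ERBa vector it was 54.6, 52.2, 43.6, 54.0 and 43.8 CPM without a tumour and 27.5 to 54.0 CPM (median 43.0) with one, so those groups overlapped.

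Ndufv2 is a core subunit with an iron-sulphur cluster beside the flavin site. It stood at 92.4, 66.1, 83.5 and 85.5 CPM in PBS_GFP and 49.6 to 76.6 CPM (median 58.7) in C26_GFP hearts, a change of -0.43 ± 0.11, adjusted p = 0.00287. Of the 10 tumour-bearing hearts, 8 were below all controls, and the lowest control was replicate 2. The REV-ERBa arms gave 74.3, 69.0, 75.9, 90.2 and 70.2 CPM without and 49.8 to 84.4 CPM (median 66.9) with a tumour. Ndufv3 is the accessory subunit next to it. Its values were 90.6, 72.1, 83.8 and 73.9 CPM in PBS_GFP and 56.3 to 78.2 CPM (median 64.8) in C26_GFP hearts, with 9 of 10 below all controls (-0.30 ± 0.09, adjusted p = 0.0147). Without PBS_GFP replicate 1 this call was lost (-0.23, adjusted p = 0.116), as it was without the 5 deepest libraries (-0.32, adjusted p = 0.0865). In the REV-ERBa arms Ndufv3 was at 80.7, 68.1, 76.8, 78.4 and 74.3 CPM without and 53.8 to 91.0 CPM (median 71.8) with a tumour.

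Ndufs1, the largest core subunit, carries several of the module's iron-sulphur clusters. PBS_GFP hearts had 459, 426, 449 and 434 CPM and C26_GFP hearts 338 to 429 CPM (median 368), with 9 of 10 below all controls and replicate 2 as the exception. The change was -0.25 ± 0.06, adjusted p = 0.00403, and it was not called without the 5 deepest libraries (-0.24, adjusted p = 0.0838). PBS_REV-ERBa hearts had 407, 431, 407, 486 and 402 CPM and C26_REV-ERBa hearts 338 to 454 CPM (median 429). Ndufv1, which holds the flavin where NADH is oxidised, did not move with its neighbours. It read 364, 310.1, 345 and 330.3 CPM in PBS_GFP and 349.9 to 404 CPM (median 371) in C26_GFP hearts, where 6 of 10 were above all controls and none was below the control median (0.14 ± 0.06, adjusted p = 0.0675, not called). Ndufv1 was called higher without PBS_GFP replicate 1 and without PBS_REV-ERBa replicate 4. It was also called higher with DESeq2 and at an adjusted p under 0.1, and its lowest adjusted p over all alternatives was 0.0378. Of the other N module genes, Ndufs6, Ndufa2, Ndufa6 and Ndufa12 had changes of -0.21, -0.06, -0.08 and -0.18 and were not called.

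Ndufa7 was the only one of the 41 genes that rose. This accessory subunit lies at chr17:33824572-33838316 and was at 40.5, 33.2, 32.7 and 32.3 CPM in PBS_GFP and 36.6 to 48.8 CPM (median 43.6) in C26_GFP hearts. Of the 10 tumour-bearing hearts, 9 exceeded all controls, of which replicate 1 was the highest (0.32 ± 0.10, adjusted p = 0.02). In PBS_REV-ERBa hearts it was at 32.8, 33.6, 36.7, 43.1 and 35.2 CPM and in C26_REV-ERBa hearts at 23.5 to 42.2 CPM (median 36.5). All 10 of the latter were below the C26_GFP median, and Ndufa7 fell in that comparison (-0.31 ± 0.08, adjusted p = 0.0186). The rise was not called without PBS_GFP replicate 2 (0.29, adjusted p = 0.0721), replicate 3 (0.29, adjusted p = 0.0635) or replicate 4 (0.29, adjusted p = 0.0671), nor without the 5 deepest libraries (0.42, adjusted p = 0.0618). The fall under the REV-ERBa vector was called in all 11 alternative analyses, of which the looser threshold keeps every call by design, and with every library left out.

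Ndufa7 starts beside Rps28, which encodes a protein of the small ribosomal subunit and is read in the opposite direction. The deposited starts are 73 bases apart, and 9 bases upstream of Ndufa7 belong to no annotated exon. They are shown because they are all that separates the pair in the annotation (GENCODE, with the start from RefSeq; chr17:33824563-33824571, forward strand), 5′ to 3′ with no motif to mark.
Ndufa7: accgcacgc
Rps28 changed in the same directions. Its mean was 10.5 ± 2.46 CPM (SD, n = 4) in PBS_GFP, 11.3 ± 1.02 (n = 5) in PBS_REV-ERBa, 13.9 ± 2.15 (n = 10) in C26_GFP and 10.8 ± 1.77 (n = 10) in C26_REV-ERBa hearts. The log2 change was 0.42 ± 0.14 with the tumour (adjusted p = 0.021) and -0.36 ± 0.10 with the REV-ERBa vector in tumour-bearing mice (adjusted p = 0.0314, edgeR). This gene was singled out after its values were seen, and no other divergent neighbour of a member was called in these comparisons.

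In the Q module, which hands electrons to ubiquinone, 3 of 6 genes fell (Ndufs8, Ndufa9 and Ndufs3), none rose, and all 6 estimates were negative. Ndufs8, a core subunit with a pair of iron-sulphur clusters on the path to ubiquinone, fell by more than any other member. PBS_GFP hearts had 65.8, 57.7, 57.4 and 61.6 CPM and C26_GFP hearts 32.6 to 52.4 CPM (median 42.1). The groups did not overlap, and the change was -0.52 ± 0.11, adjusted p = 0.000875. In the REV-ERBa arms it was at 63.5, 58.5, 59.9, 61.1 and 52.5 CPM without and 37.3 to 65.4 CPM (median 49.0) with a tumour. Against C26_GFP, C26_REV-ERBa hearts were at 0.26 ± 0.09, adjusted p = 0.0542, not called, with 4 of 10 above all C26_GFP hearts. The stretch upstream of this gene is shown because Ndufs8 had the largest change (chr19:3912775-3913024, reverse strand, from 250 bases before the RefSeq start to the base before it). It holds none of the 4 motifs searched, which are defined further on, so no letter is capital.
Ndufs8: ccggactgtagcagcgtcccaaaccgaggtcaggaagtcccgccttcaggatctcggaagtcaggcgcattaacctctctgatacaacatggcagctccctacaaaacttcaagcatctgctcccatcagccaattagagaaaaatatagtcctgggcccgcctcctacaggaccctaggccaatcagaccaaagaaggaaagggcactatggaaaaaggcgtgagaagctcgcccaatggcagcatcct

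Ndufa9 encodes an accessory subunit at the joint of the matrix and membrane arms. It was at 165, 144, 143 and 156 CPM in PBS_GFP and 114 to 146 CPM (median 128) in C26_GFP hearts, with 9 of 10 below all controls (-0.25 ± 0.08, adjusted p = 0.0224). The call was lost without PBS_GFP replicate 1 (-0.20, adjusted p = 0.118) or replicate 4 (-0.24, adjusted p = 0.0636), and without the 5 deepest libraries (-0.26, adjusted p = 0.143). PBS_REV-ERBa hearts had 147, 137, 149.9, 165 and 124 CPM and C26_REV-ERBa hearts 107 to 166 CPM (median 142). Ndufs3 is a core subunit without a cluster of its own. Its level was 69.5, 55.3, 73.7 and 64.5 CPM in PBS_GFP and 48.3 to 63.7 CPM (median 58.0) in C26_GFP hearts. All 10 were below the control median but only 3 below every control (-0.20 ± 0.07, adjusted p = 0.0215). Leaving out PBS_GFP replicate 1 (-0.17, adjusted p = 0.118) or replicate 3 (-0.15, adjusted p = 0.138) removed this call. It was also lost with only the libraries of the groups compared. With the REV-ERBa vector Ndufs3 was at 59.5, 59.7, 62.2, 70.7 and 64.4 CPM without and 55.1 to 62.2 CPM (median 59.1) with a tumour. Ndufs7, a core subunit at the ubiquinone site (-0.20 ± 0.10, adjusted p = 0.145), and the accessory subunit Ndufa5 (-0.04 ± 0.12, adjusted p = 0.834) were not called.

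**Figure D2:**
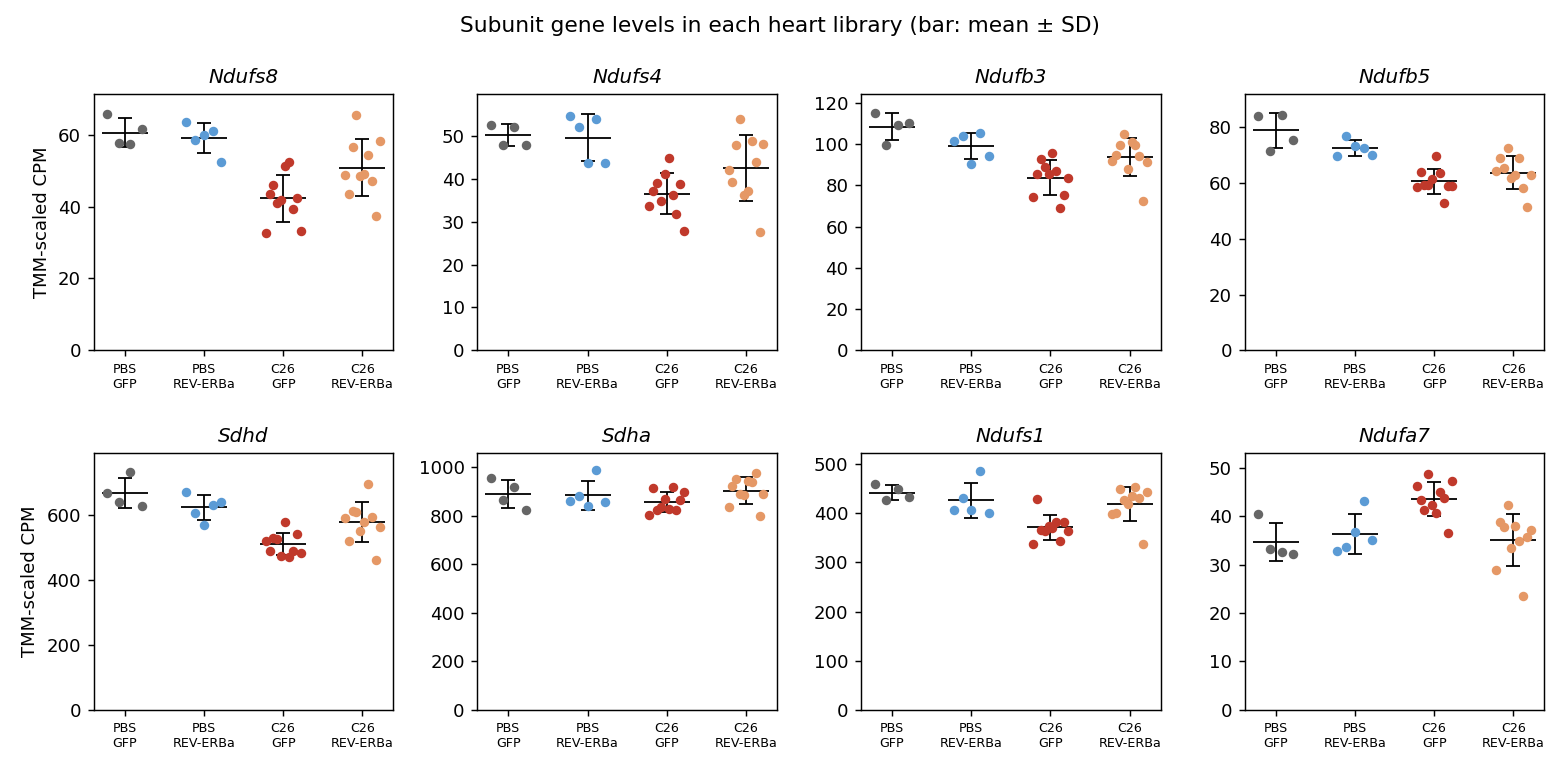
TMM-scaled CPM of 8 subunit genes in each of the 29 heart libraries, by group, with bars for the mean and SD. Ndufs8, Ndufs4, Ndufb3, Ndufb5 and Sdhd lie lower in all 10 C26_GFP hearts than in any PBS_GFP heart, Sdha overlaps between all groups, and the mean of Ndufa7 is highest in C26_GFP hearts. The share of all genes tested that separate these groups was not counted.

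In the proximal part of the membrane arm, next to the Q module, 4 of 9 genes fell (Ndufc2, Ndufa10, Ndufa11 and Ndufa8) and none rose. Ndufc2 encodes a small membrane subunit. It was at 132, 118, 134 and 130 CPM in PBS_GFP and 87.5 to 124 CPM (median 92.3) in C26_GFP hearts, with 9 of 10 below all controls (-0.40 ± 0.09, adjusted p = 0.00088). PBS_REV-ERBa hearts had 130.1, 115, 119.8, 116 and 107 CPM, all below the PBS_GFP median, and C26_REV-ERBa hearts had 88.4 to 128 CPM (median 106). Ndufa10 is a subunit on the matrix face with a nucleoside kinase fold. Its values were 277, 239, 264 and 241 CPM in PBS_GFP and 191 to 241 CPM (median 212) in C26_GFP hearts, with 9 of 10 below all controls (-0.26 ± 0.07, adjusted p = 0.00911). This call was lost without PBS_GFP replicate 1 (-0.21, adjusted p = 0.0641) or the 5 deepest libraries (-0.25, adjusted p = 0.113). Under the REV-ERBa vector it was at 247, 246, 216, 259.8 and 247 CPM without and 172 to 258 CPM (median 241) with a tumour, the lowest being replicate 9.

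Ndufa8, a subunit of the intermembrane face, was the most abundant complex I member per length. It stood at 282, 240.3, 253 and 248 CPM in PBS_GFP and 191 to 254 CPM (median 220) in C26_GFP hearts, with 8 of 10 below all controls (-0.21 ± 0.07, adjusted p = 0.0251). It was not called without PBS_GFP replicate 1 (-0.15, adjusted p = 0.156), without the 5 deepest libraries (-0.21, adjusted p = 0.113) or without the 8 libraries with high atrial markers (-0.22, adjusted p = 0.0537). The REV-ERBa arms had 265, 253, 243, 263 and 231 CPM without and 195 to 266 CPM (median 238) with a tumour. Ndufa11, a membrane subunit that resembles the TIM17 family of protein import, was at 34.2, 30.9, 32.1 and 33.7 CPM in PBS_GFP and 16.5 to 34.1 CPM (median 24.9) in C26_GFP hearts. Of these, 9 of 10 were below all controls (-0.38 ± 0.14, adjusted p = 0.0368). The controls were close together and the tumour-bearing hearts spread widely, and the call was lost in 7 of the 29 analyses that left out a library, among them each of the 4 PBS_GFP hearts (adjusted p = 0.112 without replicate 1, 0.057 without replicate 2, 0.0656 without replicate 3 and 0.0806 without replicate 4) and C26_GFP replicates 1, 5 and 10 (adjusted p = 0.0577, 0.0522 and 0.06). It was also lost without the 5 deepest libraries (-0.48, adjusted p = 0.102). PBS_REV-ERBa hearts had 32.5, 32.2, 40.9, 33.3 and 30.1 CPM and C26_REV-ERBa hearts 20.5 to 40.6 CPM (median 25.4), of which 9 of 10 were below all PBS_REV-ERBa hearts (-0.35 ± 0.13, adjusted p = 0.108, not called). The bases before the Ndufa11 start are shown for the NRF1 core they hold on both strands, overlapping, in capitals (chr17:56717686-56717761, forward strand).
Ndufa11: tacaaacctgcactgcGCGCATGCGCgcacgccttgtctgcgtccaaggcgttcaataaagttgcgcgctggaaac
The 5 proximal genes that were not called were Ndufc1 (-0.27), Ndufs5 (-0.25), Ndufa13 (-0.09), Ndufa1 (-0.07) and Ndufa3 (0.04). Ndufs5 was counted over 25 bases only, so its level is thinly sampled.

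In the distal part of the membrane arm, at the far end from the Q module, 4 of 10 genes fell (Ndufb5, Ndufb3, Ndufb8 and Ndufb6), none rose, and all 10 estimates were negative. Ndufb5 had the smallest adjusted p of the 41 genes. PBS_GFP hearts had 84.0, 71.7, 84.4 and 75.6 CPM and C26_GFP hearts 52.9 to 69.6 CPM (median 59.2). No C26_GFP heart reached a PBS_GFP heart (-0.38 ± 0.07, adjusted p = 0.000153). In the REV-ERBa arms Ndufb5 was at 69.7, 76.8, 73.3, 72.6 and 70.2 CPM without and 51.5 to 72.5 CPM (median 63.7) with a tumour, and 9 of 10 of the latter were below all PBS_REV-ERBa hearts (-0.18 ± 0.07, adjusted p = 0.0799, not called). Ndufb3, a small membrane subunit, was at 115, 99.4, 109 and 110.2 CPM in PBS_GFP and 68.8 to 95.4 CPM (median 85.5) in C26_GFP hearts, again without overlap (-0.37 ± 0.08, adjusted p = 0.000748). PBS_REV-ERBa hearts had 101, 104, 90.5, 105 and 94.1 CPM and C26_REV-ERBa hearts 72.4 to 105 CPM (median 94.3).

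Ndufb8, whose protein is widely used as a marker of assembled complex I on blots, was at 148, 117, 148 and 118 CPM in PBS_GFP and 88.6 to 129 CPM (median 107) in C26_GFP hearts, with 8 of 10 below all controls (-0.33 ± 0.10, adjusted p = 0.012). The call was lost without PBS_GFP replicate 1 (-0.27, adjusted p = 0.0817) or replicate 3 (-0.28, adjusted p = 0.0646). The REV-ERBa arms had 128, 117, 131, 131 and 113 CPM without and 100 to 159 CPM (median 115) with a tumour. Ndufb6 was at 109, 92.9, 87.8 and 82.9 CPM in PBS_GFP and 61.7 to 83.3 CPM (median 78.2) in C26_GFP hearts, with 9 of 10 below all controls (-0.30 ± 0.10, adjusted p = 0.0183). Without PBS_GFP replicate 1, its highest control, it was not called (-0.21, adjusted p = 0.156), nor without the 5 deepest libraries (-0.22, adjusted p = 0.301). PBS_REV-ERBa hearts had 88.7, 73.0, 91.4, 99.6 and 86.1 CPM and C26_REV-ERBa hearts 60.9 to 106 CPM (median 83.1). The 250 bases before its RefSeq start hold an ETS match on the other strand far from the start, in capitals (chr4:40279422-40279671, reverse strand).
Ndufb6: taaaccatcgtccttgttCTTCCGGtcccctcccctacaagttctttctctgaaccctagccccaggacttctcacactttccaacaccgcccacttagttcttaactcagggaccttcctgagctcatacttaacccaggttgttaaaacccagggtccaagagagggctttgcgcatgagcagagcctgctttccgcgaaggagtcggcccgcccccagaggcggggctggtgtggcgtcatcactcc
The 6 distal genes that were not called ranged from -0.04 (Ndufb9) to -0.24 (Ndufb2), and Ndufb10 was nearest to the threshold (-0.22 ± 0.09, adjusted p = 0.0704).

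Complex II has 4 subunits, and 1 of them fell. Sdhd, which with Sdhc anchors the enzyme in the membrane and binds its haem and ubiquinone, was at 667, 638, 731 and 627 CPM in PBS_GFP and 469.7 to 578 CPM (median 504) in C26_GFP hearts. The groups did not overlap (-0.38 ± 0.07, adjusted p = 0.000222). In PBS_REV-ERBa hearts it was at 668, 606, 568, 631 and 637 CPM and in C26_REV-ERBa hearts at 459.5 to 695 CPM (median 582). Sdhc, the partner anchor, was at 625, 579, 630.1 and 620.1 CPM in PBS_GFP and 511 to 596 CPM (median 579) in C26_GFP hearts. All 10 were below the control median and 5 below every control (-0.11 ± 0.06, adjusted p = 0.206, not called). Sdha, the flavoprotein that oxidises succinate, was at 955, 866, 919 and 823 CPM in PBS_GFP and 805 to 919 CPM (median 851) in C26_GFP hearts, with only 1 of 10 below all controls (-0.05 ± 0.06, adjusted p = 0.513, not called). Sdhb, the iron-sulphur subunit, had 105, 85.2, 95.3 and 84.9 CPM in PBS_GFP and 67.2 to 94.5 CPM (median 84.8) in C26_GFP hearts (-0.16 ± 0.09, adjusted p = 0.177, not called). The difference between Sdhd and the other 3 subunits was not tested. Ndufa4 (-0.18 ± 0.11, adjusted p = 0.227) and Ndufa4l2, a relative induced by hypoxia (-0.16 ± 0.11, adjusted p = 0.293), were not called.

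Sdhd starts beside Timm8b, a chaperone of the intermembrane space that is read in the opposite direction, with 51 bases between the deposited starts. The 60 bases before the RefSeq start of Sdhd are shown for the ETS match they hold on the other strand, in capitals (chr9:50603850-50603909, reverse strand).
Sdhd: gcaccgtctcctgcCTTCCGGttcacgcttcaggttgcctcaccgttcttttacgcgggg
Timm8b was not called in the tumour comparison. It averaged 66.5 ± 4.004 CPM (SD, n = 4) in PBS_GFP and 62.6 ± 3.61 (n = 10) in C26_GFP hearts, a log2 change of -0.08 ± 0.06 (adjusted p = 0.338, edgeR).

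Summed over the 35 complex I genes, levels in the PBS_GFP hearts were 4192, 3573, 3883 and 3660 CPM, and in the PBS_REV-ERBa hearts 3722, 3550, 3704, 4049 and 3461 CPM. C26_GFP hearts ran from 3029 to 3741 CPM with a median of 3380, and C26_REV-ERBa hearts from 2989 to 4096 with a median of 3551. The C26_GFP sums were mostly the lowest, but their upper end overlapped every other group. Summed over the 4 complex II genes, PBS_GFP hearts had 2352, 2167, 2375 and 2155 CPM and PBS_REV-ERBa hearts 2226, 2154, 2042, 2349 and 2158. The 10 C26_GFP hearts had 1899 to 2086 CPM (median 2032), all below the PBS_GFP hearts, and the 10 C26_REV-ERBa hearts 1887 to 2353 (median 2136). These sums are descriptions and were not tested.

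Cardiomyocyte markers moved with these sums. In C26_GFP against PBS_GFP, where 14.0% of all genes tested fell and 14.2% rose, 7 of the 10 markers fell and 1 rose. Their median log2 change was -0.36, and none was at 0 in any library. Their summed level was 46530 to 52510 CPM in PBS_GFP, 46760 to 55760 in PBS_REV-ERBa, 35200 to 48220 in C26_GFP and 37780 to 51750 in C26_REV-ERBa hearts. As a percentage of that sum, the complex I genes made up 7.61 to 7.98% in PBS_GFP hearts (median 7.78) and 6.999 to 8.99% in C26_GFP hearts (median 8.17). For complex II the figures were 4.48 to 4.82% (median 4.57) and 4.24 to 5.76% (median 4.78). Relative to these markers the medians of both complexes were higher in C26_GFP hearts, within overlapping ranges. The marker sum mostly follows its largest genes, Myh6 (15630 to 29380 CPM over all libraries) and Pln (9140 to 11700 CPM). Macrophage markers had 2 of 6 genes higher and none lower, with sums of 280 to 353 CPM in PBS_GFP and 304 to 524 in C26_GFP hearts, and fibroblast markers 2 of 6 higher and none lower (938 to 1170 and 1015 to 1554 CPM). Endothelial markers had 1 of 6 lower and 2 higher, pericyte and smooth muscle markers 2 of 6 lower, hepatocyte markers 2 of 4 tested lower and the T cell marker Cd3e higher. The hepatocyte sum over the 4 tested was 76.8 CPM in PBS_GFP replicate 2 and 0.83, 1.44 and 1.16 in the other controls, and its median was higher in C26_GFP (4.49) than in PBS_GFP (1.30). Cd3e was at 13.5 and 14.1 CPM in C26_GFP replicates 7 and 10, against a group median of 1.72. No atrial (5 tested), adipocyte (3), neutrophil (1) or erythroid (1) marker was called. The same libraries were at the ends for subunits and for markers. C26_GFP replicates 1, 8 and 10, the lowest in the members' mean, also had the lowest mean cardiomyocyte marker levels of their group (10.7, 10.8 and 10.7 log2 CPM), and replicate 6, the highest, had the highest (11.2). The part of these cell types in the subunit changes was not tested, and in whole heart tissue fewer cells of a type and less RNA per cell cannot be told apart.

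**Figure D3:**
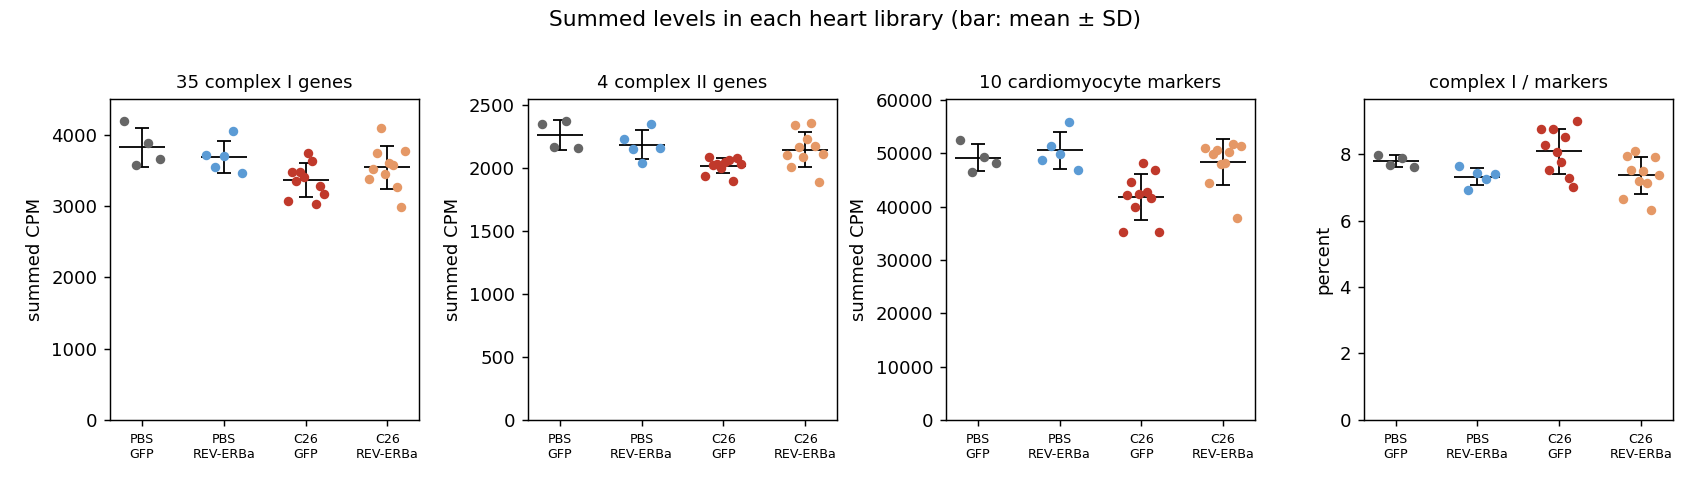
Summed TMM-scaled CPM in each heart library for 35 complex I genes, 4 complex II genes and 10 cardiomyocyte markers, and the complex I sum as a percentage of the marker sum, with bars for the mean and SD of each group. The means of the first 3 panels are lower in C26_GFP than in PBS_GFP hearts, whereas the percentage overlaps (7.61 to 7.98% and 6.999 to 8.99%).

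In tumour-bearing mice the REV-ERBa vector was accompanied by changes in 3 of the 41 genes. Ndufa7 fell, Ndufs1 and Sdhd rose, and 38 were not called, while 3.45% of all genes tested fell and 3.75% rose. Estimates were positive for 36 of 41 genes, against 50.9% of all genes, with a median of 0.07 against 0.00 (0.00396). Sdhd was at 469.7 to 578 CPM (median 504) in C26_GFP and 459.5 to 695 CPM (median 582) in C26_REV-ERBa hearts, with 5 of 10 above all C26_GFP hearts and 1, replicate 9, below them (0.18 ± 0.06, adjusted p = 0.0472). Ndufs1 was at 338 to 429 CPM (median 368) and 338 to 454 CPM (median 429), with 9 of 10 C26_REV-ERBa hearts above the C26_GFP median (0.18 ± 0.05, adjusted p = 0.0321). Both calls lay near the threshold. The Ndufs1 call was lost in 7 and the Sdhd call in 21 of the 29 analyses that left out a library, with adjusted p of at most 0.0725 and 0.104 over all alternatives, and neither was called with the comparison's own 20 libraries alone. The largest positive estimates were those of Ndufs8 (0.26 ± 0.09, adjusted p = 0.0542) and Ndufs4 (0.21 ± 0.09, adjusted p = 0.142), above both called rises but not called themselves. Below the called rises came Sdhb (0.17 ± 0.07, adjusted p = 0.128), Ndufv2 (0.16 ± 0.08, adjusted p = 0.216) and Ndufb8 (0.16 ± 0.08, adjusted p = 0.175), none of them called. Without C26_REV-ERBa replicate 9, the library lowest in the members' mean, 7 members rose, while 6.9% of all genes tested rose. No member rose without any 1 of C26_GFP replicates 1, 8 and 10 or C26_REV-ERBa replicates 3, 4, 7 and 10. In those analyses 1.15 to 2.41% of all genes tested rose. The positive lean also depended on a few libraries. Without the 8 libraries with high atrial markers the median was 0.05 and 16 of 41 estimates were negative, and without C26_REV-ERBa replicate 4 it was 0.04 with 15 negative. Of the cardiomyocyte markers, 1 of 10 rose and 9 were not called in this comparison, with a median of 0.17. The 4 hepatocyte markers tested had a median of 2.12 and the 3 adipocyte markers 2.21, none called, with sums over the whole lists of up to 155 and 339 CPM in single C26_REV-ERBa hearts, and their part in the subunit values was not tested. This comparison and the tumour comparison above share the C26_GFP hearts.

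Without a tumour, no change with the REV-ERBa vector was called in the 41 genes. None was called by edgeR, DESeq2 or limma voom, while 0% of all genes tested were called in either direction by edgeR. No member had an unadjusted p under 0.05, beside 530 of 12928 genes tested by edgeR. Estimates were negative for 32 of 41 genes (78%, against 50.1% of all genes), with a median of -0.05. The largest estimate was that of Ndufs5 (-0.21 ± 0.18, adjusted p = 1). This comparison shares the PBS_GFP hearts with the tumour comparison and has 4 against 5 libraries.

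With the REV-ERBa vector in both arms, none of the 41 genes was called with the tumour by edgeR, while 3.19% of all genes tested fell and 4.05% rose. By edgeR, an unadjusted p under 0.05 was found for 4 of 41 members, beside 3056 of 12928 genes tested. DESeq2 called none of the members and limma voom called 1. Without C26_REV-ERBa replicate 4, the highest in the members' mean, edgeR called 2 members lower. The share of all genes called in these alternatives was not counted. Estimates were negative for 33 of 41 genes, against 49.4% of all genes, and the median was -0.07. The smallest adjusted p belonged to Ndufb5, and the largest changes to Ndufa11 (-0.35) and Ndufc1 (-0.31 ± 0.15, adjusted p = 0.214). The tumour effect under GFP and the tumour effect under REV-ERBa share no library. Across the 41 genes the paired estimates had a Pearson r of 0.64 and a Spearman rho of 0.73, as a description over genes of the same libraries, and r was 0.54 over all 12928 genes. Both estimates were negative for 32 of 41 genes, against 36.3% of all genes, and the change was larger in size under GFP for 37 of 41. The share of all genes with a larger change under GFP was not computed. Over all genes tested, 14.0% fell and 14.2% rose with the tumour under GFP, against 3.19% and 4.05% under REV-ERBa. Ndufs8 was at -0.52 under GFP and -0.21 under REV-ERBa, Sdhd at -0.38 and -0.11, and Ndufs1 at -0.25 and -0.02.

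**Figure D4:**
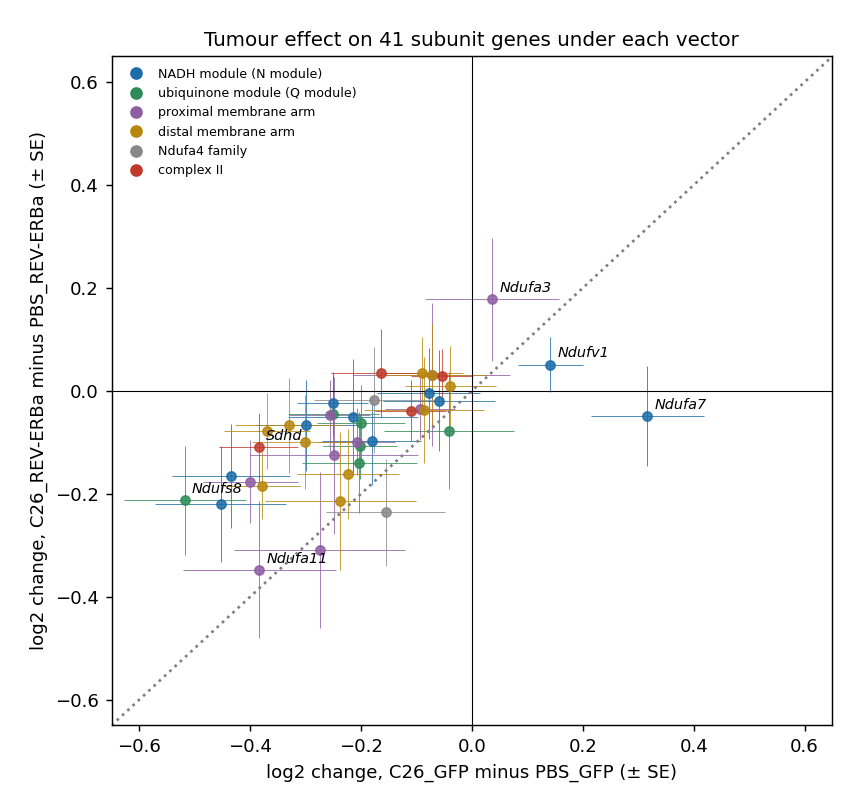
Log2 change with the tumour under the GFP vector (horizontal) against that under the REV-ERBa vector (vertical) for the 41 subunit genes, with SE bars, coloured by part of the complex; the dotted line marks equal change. Most points lie in the lower left above the dotted line, and the difference between vectors was not called for any gene.

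Whether the tumour effect differed between the vectors was tested as an interaction. It was not called for any of the 41 genes, and 0% of all genes tested were called in either direction. By edgeR, 6 of 41 members had an unadjusted p under 0.05, beside 1357 of 12928 genes tested. The count of members was 5 by DESeq2 and 12 by limma voom, and neither of these called a member. The smallest adjusted p was that of Sdhd, where the tumour effect was higher by 0.28 ± 0.10 under REV-ERBa (adjusted p = 0.358). Ndufa7 had the opposite sign (-0.36 ± 0.14, adjusted p = 0.38). The change being larger under GFP for most genes is therefore not shown to be a difference between vectors for any of them.

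Levels between genes were compared per length, as CPM per kilobase of the length the authors counted over, with Ndufs5 left out. In PBS_GFP hearts the complex II anchors led, with Sdhc at 520.4 ± 20.1 (SD, n = 4) and Sdhd at 518 ± 36.4, which do not differ beyond their spread. Ndufa8 followed at 346 ± 24.6, then Sdha at 312 ± 20.3 and Ndufb10 at 298 ± 20.8, whose ranges overlap. The median of the 40 genes was 117, and Ndufa11 was lowest at 12.3 ± 0.57, over a counted length of 2661 bases. Within the Q module Ndufs7 was at 167 ± 14.9 and Ndufs8 at 59.0 ± 3.84, and within complex II Sdhb was at 86.3 ± 8.92. Members of the same complex thus differed widely in level per counted length, a measure that depends on the lengths the authors counted over.

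Many assembly factors of these complexes also fell with the tumour, while 14.0% of all genes tested fell and 14.2% rose. Of 17 complex I assembly factors tested, counted with the acyl carrier protein Ndufab1, 10 fell, none rose and 7 were not called in C26_GFP against PBS_GFP. Examples are Tmem70 (-0.44 ± 0.08, adjusted p = 9.1e-05), Ndufaf1 (-0.52 ± 0.09, adjusted p = 0.000106), Ndufaf4 (-0.54 ± 0.10, adjusted p = 0.000189) and Ndufab1 (-0.50 ± 0.09, adjusted p = 0.00027). Their median was -0.27, against -0.22 for the 35 subunits. Of 4 complex II assembly factors 3 fell, led by Sdhaf4 (-0.74 ± 0.13, adjusted p = 0.000103), which acts on Sdha, and Sdhaf2 (-0.28 ± 0.06, adjusted p = 0.00151), which attaches its flavin. In the REV-ERBa comparison among tumour-bearing mice, Ndufaf1 (0.29 ± 0.07, adjusted p = 0.0158) and Sdhaf4 (0.33 ± 0.10, adjusted p = 0.0426) rose, the only ones of either list. Over all genes tested, 3.75% rose there.

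Enzymes around complexes I and II were also measured, in a tumour comparison where 14.0% of all genes tested fell and 14.2% rose. Of 13 genes of ubiquinone synthesis and handling, 7 fell and none rose with the tumour, among them Adck3 (-0.41 ± 0.08, adjusted p = 0.00019), Coq9 (-0.39 ± 0.07, adjusted p = 0.000191), Coq5 (-0.34 ± 0.06, adjusted p = 0.000202) and Coq10b (-0.52 ± 0.10, adjusted p = 0.000499). Under the REV-ERBa vector in tumour-bearing mice 3 of the 13 rose, including Coq9 (0.19 ± 0.05, adjusted p = 0.0353), beside 3.75% of all genes. Of 7 other dehydrogenases that feed ubiquinone, Gpd2 (-0.35 ± 0.11, adjusted p = 0.0204) and Dhodh (-0.41 ± 0.14, adjusted p = 0.0297) fell and 5 were not called. The median of these 7 was 0.007, with 3 estimates negative and the highest at 0.26. In the rest of the chain, 14 of 36 genes of complexes III to V and cytochrome c fell and none rose, with a median of -0.16, and cytochrome c itself, Cycs, was at -0.66 ± 0.10, adjusted p = 4.07e-05. Of 11 mitochondrial outer membrane and import genes 6 fell and none rose, including Tomm22 (-0.50 ± 0.07, adjusted p = 1.53e-05) and Tomm70a (-0.31 ± 0.05, adjusted p = 6.82e-05). The lower subunit mRNA was thus accompanied by lower mRNA in other mitochondrial lists, except that the median of the 7 dehydrogenases was 0.007. No test of a difference between these lists was made.

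Of 15 regulators of respiratory gene transcription, 3 fell, 1 rose and 11 were not called with the tumour. These counts stand beside 14.0% of all genes tested that fell and 14.2% that rose. The median of the 15 was -0.07, and 10 estimates were negative. Tfam, which maintains and transcribes mitochondrial DNA, was at -0.47 ± 0.08, adjusted p = 0.00017, Ppara at -0.34 ± 0.11, adjusted p = 0.0168 and the nuclear receptor Esrrb at 0.38 ± 0.09, adjusted p = 0.00278. In C26_REV-ERBa against C26_GFP hearts 2 of 15 rose, Tfam (0.21 ± 0.07, adjusted p = 0.043) and the ETS factor Gabpa (0.14 ± 0.04, adjusted p = 0.0369). Over all genes tested, 3.75% rose in that comparison.

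Short motifs, 4 in all, were searched on both strands in the RefSeq promoters of 35 members, from 250 bases before to 50 bases after the start (GRCm38.p6). The NRF1 core GCGCATGC was in 4 of 35 (11.4%), against 3.9% of 15485 genes of the count table with a promoter. The ERR half-site AAGGTCA was in 4 of 35 (11.4%), against 3.9%, and the REV-ERB/ROR half-site TAGGTCA, which shares its last 6 letters with the ERR half-site, in 2 of 35 (5.71%), against 2.18%. The ETS motif CCGGAAG was in 6 of 35 (17.1%), against 12.4%. Among the 15 promoters of genes that fell, 4 held the ETS motif (Ndufb6, Ndufs3, Ndufs8 and Sdhd), 2 the NRF1 core (Ndufa8 and Ndufa11), 1 the ERR half-site (Sdhd) and 1 the REV-ERB/ROR half-site (Ndufa11). Among the other 20 promoters the counts were 2, 2, 3 and 1. In Ndufs8 the ETS match lies 15 to 21 bases after the start, outside the stretch printed above. A match is a run of letters and not a bound site. Members without a matched promoter include Ndufb9, Ndufs1, Ndufa2, Ndufa4l2 and Sdhc.

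Many members share their start region with another gene. In the deposited coordinates, 15 of 41 (36.6%) have a gene on the opposite strand that starts within 1000 bases in the other direction, against 11.1% of all genes tested, a count made after the data were seen. Besides Rps28 and Timm8b, the partners include Eef1b2 next to Ndufs1 (8 bases between starts), Kbtbd4 next to Ndufs3 (18 bases) and Ccdc127 next to Sdha (76 bases). In C26_GFP against PBS_GFP, Rps28 was called among the partners tested and no other was. In C26_REV-ERBa against PBS_REV-ERBa, Vmac, which starts next to Ndufa11 and shares exon bases with it, was called higher (0.39, adjusted p = 0.04815, edgeR). In the GENCODE annotation 12 members share exon bases with another gene, 3 of them on the same strand (Ndufb2, Ndufb8 and Ndufb9), and among the genes that fell Ndufa9, Ndufa11, Ndufb5, Ndufb6 and Ndufs1 overlap a gene on the opposite strand. The libraries are stranded, but the strand setting of the counting (not given in the sources used here) is unknown, so these counts may hold reads of the overlapping gene.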

How the data were processed

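RNA from about 200 mg of heart was made into stranded libraries from 50 to 100 ng of total RNA without selection for poly-adenylated RNA and sequenced as 50-base pairs, per the labels' protocols. The authors deposited raw counts per RefSeq gene with the length counted over. STAR 2.4.2a, DESeq2 1.24.0 and mm10 are named in the submitters' processing notes without a role, and the counting tool was not given in the sources used here. In the deposited table, 1 column of counts matched no sample and was not used.

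Groups and replicate numbers came from the sample titles. Low genes were removed with filterByExpr at a minimum count of 10 and a minimum total of 15, and libraries were scaled by TMM and fitted with edgeR 4.0.16 (R 4.3.3) by the quasi-likelihood method with 4 group means over all 29 libraries. P-values were adjusted by Benjamini-Hochberg over 12928 genes. Each SE was derived from the log2 change and its F statistic. DESeq2 1.42.0 and limma 3.58.1 (voom with sample weights) served as alternatives, beside other scalings, other filters, a replicate block, fewer libraries and each library left out in turn. All 406 pairs of libraries differed by more than counting noise, the closest with a chi-square of 2.62 per degree of freedom. Same-numbered samples were not paired. A member that was not called is not shown to be unchanged.

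The members and gene lists were chosen with earlier results of these data known. Members may be named, except 1 item that is kept in fits and counts but not reported here, and members that passed in any comparison are given by library. Of each pathway list the genes with the smallest p are named. Lists of atrial, endothelial, neutrophil, T cell, adipocyte, erythroid and mural cells were also measured. P-values measure the spread between these libraries, and CPM are relative to the total.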

Additional observations from a re-analysis of the deposited data

Results flagged for a closer look

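In 10 of 160 combinations of a member and a group, the highest or lowest library lay apart from the rest by Dixon's criterion, which chance alone meets in about 1 of 20. C26_REV-ERBa replicate 4 was high for Sdhb (118.4 CPM, the next 98.8), Ndufb8 (158.9 CPM, the next 127) and Ndufa11 (40.57 CPM, the next 29.9). C26_REV-ERBa replicate 9 was low for Ndufs1 (337.9 CPM, the next 398), Ndufa10 (172.4 CPM, the next 224) and Ndufb3 (72.35 CPM, the next 87.8). C26_REV-ERBa replicate 8 was low for Ndufb4 (11.28 CPM, the next 13.6). PBS_GFP replicate 1 was high for Ndufa7 (40.54 CPM, the next 33.2). C26_GFP replicate 2 was high for Ndufs1 (428.5 CPM, the next 383), and PBS_REV-ERBa replicate 4 was high for Sdha (988.9 CPM, the next 881).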

How the results depend on the processing

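The 16 genes lower in C26_GFP than in PBS_GFP became 14 to 20 under RLE or upper quartile scaling, DESeq2, both other filters, only the groups compared, voom, an adjusted p under 0.1, or without the 8 libraries with high atrial markers, an alternative chosen after the data were seen. Over all genes tested, 9.6 to 18.2% fell under those settings. The 16 became 11 with a replicate block, beside 11.1% of all genes, and 9 without the libraries above 10000000 counts, beside 7.5%. With a library left out they became 8 to 18, beside 10.5 to 15.9%. The block lost the calls of Ndufb6, Ndufa10, Ndufa9, Ndufs3 and Ndufa8. Ndufs3 was also lost with only the groups compared, and Ndufa8 and Ndufa11 without a filter. The single higher gene became 2 with DESeq2 (14.9% of all genes rose) and 2 at an adjusted p under 0.1 (18.2%). That count became 0 without the deepest libraries (7.5%) and 0 to 2 with a library left out (10.9 to 16.2%). In C26_REV-ERBa against C26_GFP the 2 higher genes became 0 without a filter, beside 1.7% of all genes. The count was 1 with at least 1 CPM in 4 libraries (3.33%), 0 with a replicate block (1.16%) and 0 with only the groups compared (1.32%). It was 6 with voom (7.21%), 4 at an adjusted p under 0.1 (6.67%) and 0 to 7 with a library left out. Over all genes tested, the share higher in this comparison ran from 1.15 to 6.9% with a library left out. For C26_REV-ERBa against PBS_REV-ERBa the count lower was 1 with voom and 1 at an adjusted p under 0.1, against 0, and 0 to 2 with a library left out. For that comparison the share of all genes under these alternatives was not counted. Samples of the same replicate number were not treated as pairs. Their highest correlation was 0.09 among 4 pairs in the tumour comparison. In C26_REV-ERBa against C26_GFP it was 0.22 among 10 pairs, of which 2 were over 0.1. The sign turned, never past the threshold, for Ndufb2 without the deepest libraries (0.0806) and with a library left out for Ndufa1 (-0.1465 to 0.06377), Ndufa2 (-0.1198 to 0.0331), Ndufa5 (-0.08246 to 0.0458), Ndufa6 (-0.148 to 0.01056), Ndufb7 (-0.1456 to 0.0006805), Ndufb9 (-0.09218 to 0.04143) and Ndufa3 (-0.02822 to 0.125). The cause was not tested.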
